A study of Mus musculus with 9 samples.

Results

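The genes described are 38 genes of retinal blood vessels and of the blood-retina barrier, out of 24257 genes measured in whole mouse retina. They were taken from a list of symbols in 5 subsets: 12 pan-endothelial genes, 7 barrier genes, 6 genes of tip cells and vessel growth, 4 genes of Norrin signalling and 9 genes of mural cells. All 38 symbols were found in the platform annotation, each with 1 probe set. Retinas had been dissected on postnatal day 8 (P8) from mice of the mixed strain C57Bl/6x129SvJ in 3 groups: Rb KO, lacking the tumour suppressor Rb; Rb/p107 DKO (DKO below), lacking Rb and its relative p107; and wild type (WT). Each group had 3 arrays, labelled as biological replicates. Animals were genotyped from tail samples. How the genes were removed, in which cells, whether the p107 allele was lost throughout the body, and the sex of the animals are details not given in the sources used here.

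As background, the mouse retina is vascularised after birth. Endothelial tip cells spread along a bed of astrocytes guided by VEGF, and vessels later dive into the deeper layers. The barrier is formed by endothelial cells with tight junctions, few transport vesicles and selective carriers, and it depends on Norrin, a ligand secreted by Muller glia that signals through beta-catenin, and on pericytes that wrap the capillaries. At this age the vessel network is still being built.

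To show the sequence upstream of 4 endothelial genes on which the results turn, the 250 bases before the annotated gene start are given for the junction gene Cldn5, the transporter gene Mfsd2a and the VEGF receptor genes Flt1 and Kdr (RefSeq, build GRCm38.p6). The regions are chr16:18776597-18776846 on the plus strand for Cldn5, and chr4:122961189-122961438, chr5:147726012-147726261 and chr5:75978456-75978705 on the minus strand for Mfsd2a, Flt1 and Kdr. Capitals mark matches on either strand to GGAAGT, a core of ETS factor sites (ACTTCC on the other strand), or to ACGTG, the core of the hypoxia response element (CACGT on the other strand).
Cldn5: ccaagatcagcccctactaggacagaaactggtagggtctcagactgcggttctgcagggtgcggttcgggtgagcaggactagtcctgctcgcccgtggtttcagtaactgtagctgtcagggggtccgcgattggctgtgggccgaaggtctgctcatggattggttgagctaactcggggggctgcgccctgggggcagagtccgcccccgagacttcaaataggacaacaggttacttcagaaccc
Mfsd2a: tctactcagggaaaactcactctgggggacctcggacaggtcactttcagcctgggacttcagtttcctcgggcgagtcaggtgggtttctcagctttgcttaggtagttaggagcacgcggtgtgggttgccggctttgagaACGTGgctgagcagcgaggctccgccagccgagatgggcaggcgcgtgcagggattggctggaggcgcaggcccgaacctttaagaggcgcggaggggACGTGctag
Flt1: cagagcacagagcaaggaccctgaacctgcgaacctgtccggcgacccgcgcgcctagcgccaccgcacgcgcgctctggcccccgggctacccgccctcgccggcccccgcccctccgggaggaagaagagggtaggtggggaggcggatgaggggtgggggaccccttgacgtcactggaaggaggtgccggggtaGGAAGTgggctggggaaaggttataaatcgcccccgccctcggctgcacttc
Kdr: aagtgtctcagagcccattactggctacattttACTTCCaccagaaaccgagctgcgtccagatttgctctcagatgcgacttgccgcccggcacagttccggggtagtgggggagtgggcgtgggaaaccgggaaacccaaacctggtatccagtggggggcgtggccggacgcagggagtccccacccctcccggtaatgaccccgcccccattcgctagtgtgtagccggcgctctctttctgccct
The Mfsd2a stretch held 2 matches to ACGTG, the Flt1 and Kdr stretches 1 match each to the ETS core, and the Cldn5 stretch no match to either. Over windows that also held the 50 bases after the start (300 bases in all), 24 of the 38 genes had an entry, with 27 windows. The ETS core was in 8 of these windows (29.6%), against 23.8% of 32851 windows of all genes, and ACGTG in 3 (11.1%), against 19.6%. The E2F motif TTTNNCGC (GCGNNAAA on the other strand) was in 0 of the 27 windows, against 5.17% of all. A match in a window is a description of its letters, and the array data do not bear on binding there.

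Values are log2 intensities after robust multi-array averaging (RMA). A reading was taken as above background when it exceeded 95% of the 5222 negative control probe sets on its own array, a level that lay between 7.94 and 8.5 over the 9 arrays. By that measure 27.2% to 36.4% of all genes were above background in an array. The background level was lowest on WT replicate 2, at 7.94, against 8.16 to 8.50 on the remaining 8 arrays. A reading that counts as above background on WT replicate 2 can therefore count as background on another array. Arrays correlated at 0.992 or more within each group, at 0.976 to 0.985 between Rb KO and WT, at 0.972 to 0.980 between DKO and WT and at 0.992 to 0.995 between DKO and Rb KO. Positive and negative control probe sets were told apart with an area under the curve of 0.928 to 0.935 in Rb KO, 0.927 to 0.936 in DKO and 0.932 to 0.954 in WT. One array stood apart: DKO replicate 2 read 5.47 for Xist, where the remaining 8 arrays read 11.44 to 12.15, and its summed lens marker intensity was 6224, against 1277 to 1605 in the other DKO arrays, 786 to 1115 in Rb KO and 714 to 904 in WT. Rb1, the targeted gene, read 9.85, 10.02 and 9.86 in Rb KO retinas and 9.74, 10 and 9.85 in DKO retinas, against 10, 10.19 and 10.46 in WT, a small difference that passed the test in DKO (adjusted p = 0.0423) and missed it in Rb KO (adjusted p = 0.0793). The DKO call was lost without any one of 7 arrays (WT replicates 2 and 3, each Rb KO array and DKO replicates 1 and 3; adjusted p 0.0521 to 0.153), and with renewed quantile normalization, array centring or only those groups in the fit (0.05004 to 0.0922). A filter to genes above background on at least 3 arrays, called the filter on dim genes below, made the Rb KO difference a call (0.0394), and with the mean of the Rb1 probe sets both differences turned positive (0.68 and 0.74). Which part of the transcript the probe sets read was not determined, so these values do not check the labels. The p107 gene, Rbl1, was not analysed here.

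Most vessel and barrier genes that differed were lower in the mutants than in WT. In Rb KO against WT, 20 of the 38 fell, 3 rose and 15 did not pass the test (limma over all genes, Benjamini-Hochberg adjusted p under 0.05). Over all 24257 genes 24.4% were called, 14.3% lower and 10.2% higher. In DKO against WT, 26 fell, 3 rose and 9 did not pass, where 29.3% of all genes were called, 17.1% lower and 12.2% higher. The median log2 difference of the 38 genes was -0.35 in Rb KO and -0.50 in DKO, beside -0.05 and -0.06 over all genes. The 38 genes were chosen with earlier results of these data known, so their shares are not those of an unselected list. The comparisons share the WT arrays, so their calls are not independent. All 20 genes that fell in Rb KO were also among the 26 that fell in DKO. The other 6, Cdh5, Nos3, Slco1c1, Pdgfb, Fzd4 and Tagln, passed in DKO and not in Rb KO, and none of these 6 differed between DKO and Rb KO at the threshold.

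Many of these genes are dim in whole retina, where endothelial and mural cells are a small minority. Only 3 of the 38 (Kdr, Vegfa and Tspan12) were above background on all 9 arrays, 15 on some arrays and 20 on none. Of the calls in Rb KO, 12 of 23 were of genes above background in neither group, and in DKO 15 of 29. For those genes the readings differed, but the size of the change in RNA was not measured and no fold change is given. In whole tissue fewer vessel cells and less RNA per vessel cell cannot be told apart.

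**Figure D1:**
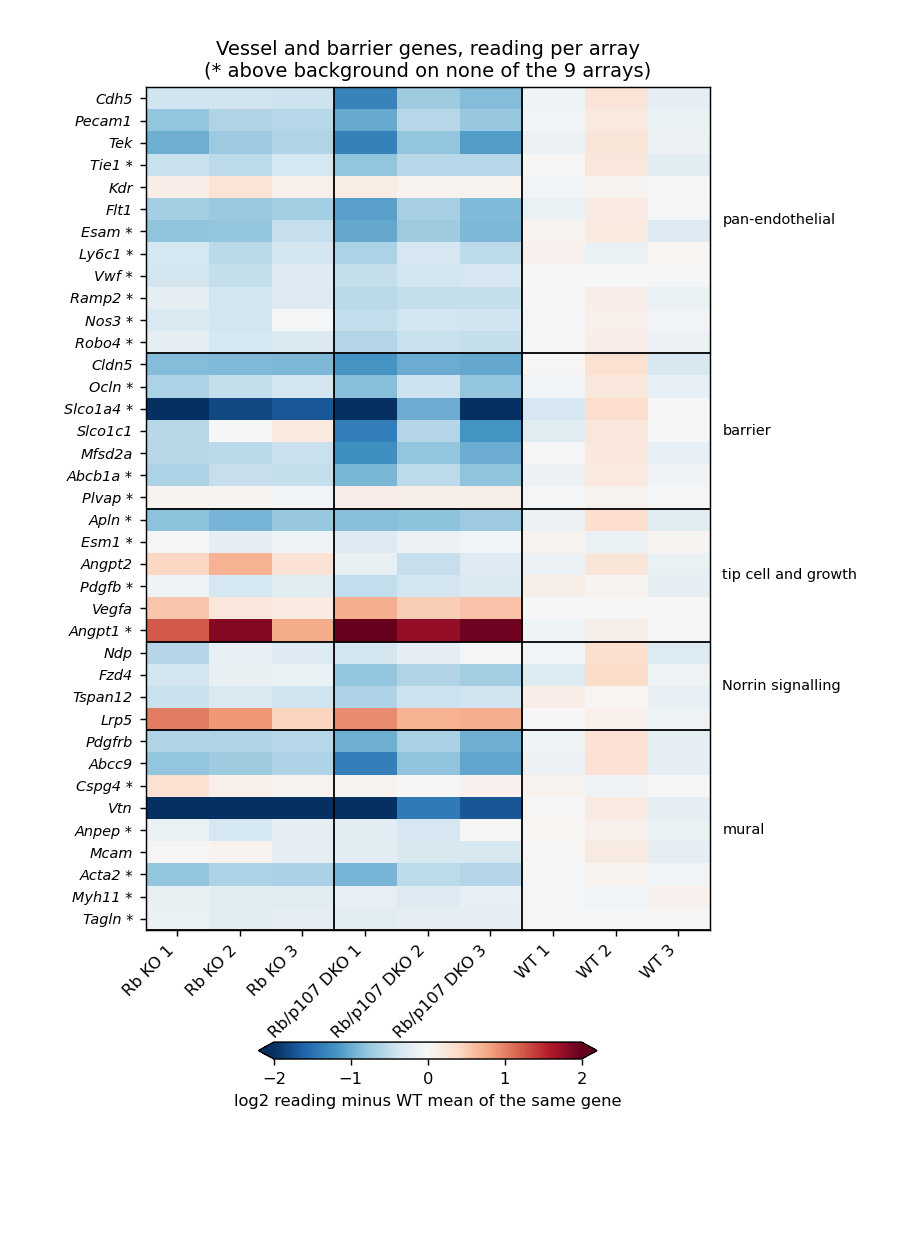
Log2 reading of each of the 38 genes (rows, by subset) in each of the 9 arrays (columns, Rb KO, DKO, WT), minus the WT mean of that gene; the colour scale runs from -2 to 2 and an asterisk marks the 20 genes above background on none of the arrays. Blue (lower than the WT mean) fills most endothelial and barrier rows in both mutants, and the deepest red is in the rows of Angpt1, Lrp5, Vegfa and, in Rb KO, Angpt2.

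The arrays of a group did not spread evenly over these genes. WT replicate 2 was the highest WT array for 30 of the 38 genes, against 38.9% of all genes, and it also had the widest separation of control probe sets (0.954). DKO replicate 1 was the lowest DKO array for 27 of the 38, against 31.4% of all genes. With the separation of control probe sets of each array as a covariate, 11 genes fell and 3 rose in Rb KO, and 19 fell and 3 rose in DKO. Of all 24257 genes, 4304 and 4952 were called in that fit. Without DKO replicate 2, the array that stood apart, 25 of the 38 fell and 3 rose in DKO against WT. In that fit 5703 of all genes were called.

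Of the 12 pan-endothelial genes, 9 fell in Rb KO and 11 in DKO, and none rose. Their median log2 difference was -0.41 in Rb KO and -0.57 in DKO (-0.88 in DKO with the filter on dim genes, which left 3 of the 12). With the covariate the Rb KO median was -0.30. By array, the median difference from the WT mean was -0.38, -0.50 and -0.36 in Rb KO retinas and -0.71, -0.52 and -0.55 in DKO retinas, against -0.03, 0.15 and -0.12 in WT. The mutant arrays therefore all lay below the WT arrays on this summary.

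Cdh5, which encodes VE-cadherin, the adhesion molecule of endothelial junctions, read 8.15, 8.17 and 8.15 in Rb KO retinas and 7.23, 7.84 and 7.68 in DKO retinas, against 8.48, 8.81 and 8.38 in WT. The WT arrays were all above background, no mutant array was, and neither mutant overlapped WT. Cdh5 fell in DKO, to at least 1.13-fold lower than in WT (log2 difference of the readings -0.97, SE 0.15, limma adjusted p = 7.28e-04). A bound written with "at least" sets the mean of the brighter group against the background level of the dimmer arrays, so it is smaller than the difference of the readings. The bound makes no allowance for the spread between arrays and is not a guaranteed minimum. In Rb KO the difference of -0.40 missed the threshold (adjusted p = 0.0791), and it passed without DKO replicate 1 (adjusted p = 0.0278), with only those groups in the fit (0.0391) or with the filter on dim genes (0.0388).

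Of the VEGF receptors, Flt1 was called lower and Kdr was not called. Flt1, the receptor that binds VEGF tightly and limits its signal, read 7.72, 7.65 and 7.70 in Rb KO retinas and 7.31, 7.72 and 7.5 in DKO retinas, against 8.26, 8.55 and 8.35 in WT. It fell in both mutants, with differences of -0.70 in Rb KO (SE 0.11, limma adjusted p = 0.00104) and -0.88 in DKO (adjusted p = 1.84e-04). WT lay so near the background level that the bound was only 1.01-fold in DKO and no higher in Rb KO. Kdr, the main signalling receptor for VEGF, read 11.79, 11.94 and 11.76 in Rb KO retinas and 11.81, 11.72 and 11.73 in DKO retinas, against 11.60, 11.72 and 11.65 in WT. It lay well above background on every array, and neither mutant overlapped WT, although replicate 2 of DKO and of WT both rounded to 11.72. It did not pass in Rb KO (1.13-fold higher, 95% interval of the log2 difference 0.01 to 0.34, adjusted p = 0.127) or in DKO (1.07-fold higher, interval -0.07 to 0.26, adjusted p = 0.393), though renewed quantile normalization made it a called rise in Rb KO (adjusted p = 0.0357). As background, Kdr is also transcribed by neural cells of the developing mouse retina, so its reading in whole retina need not come from vessels.

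Tek encodes the receptor for the angiopoietins, and its readings were 6.75, 6.99 and 7.12 in Rb KO retinas and 6.37, 6.94 and 6.61 in DKO retinas, against 7.61, 7.96 and 7.60 in WT. Pecam1, the endothelial adhesion molecule CD31, read 6.99, 7.18 and 7.22 in Rb KO retinas and 6.78, 7.21 and 7.04 in DKO retinas, against 7.73, 7.98 and 7.66 in WT. Of the WT arrays only replicate 2 was above background for Tek and Pecam1, and no mutant array was. Both fell in both mutants without overlap (adjusted p = 0.00451 and 4.19e-04 for Tek in Rb KO and DKO, 0.00281 and 7.86e-04 for Pecam1), and no bound above 1-fold could be given.

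The other 7 endothelial genes were above background on no array. They are Tie1, a partner receptor of Tek; Esam, a junction adhesion molecule; Ly6c1, a surface protein of mouse endothelium; Vwf, the von Willebrand clotting factor; Ramp2, a subunit of the adrenomedullin receptor; Nos3, the endothelial nitric oxide synthase; and Robo4, an endothelial guidance receptor. All 7 had lower readings in DKO (adjusted p 6.05e-04 to 0.00706), and all but Nos3 (adjusted p = 0.0919) in Rb KO. The Rb KO calls of Ramp2 (adjusted p = 0.0415) and Robo4 (adjusted p = 0.0356) were lost without any one of 7 and 6 of the 9 arrays (adjusted p 0.0620 to 0.150 and 0.0512 to 0.124), all but WT replicate 3 and Rb KO replicate 1 and, for Robo4, DKO replicate 1. That of Tie1 (adjusted p = 0.0155) was lost without Rb KO replicate 2 (0.0640), while Nos3 passed without Rb KO replicate 3 (0.0186). With the control separation as a covariate, the Rb KO calls of Tie1, Ramp2 and Robo4 and the DKO call of Nos3 were lost (adjusted p 0.0905 to 0.228), and centring each array on its median also ended those 3 Rb KO calls (0.0624 to 0.166). Fitting only those groups ended the Rb KO calls of Ramp2 and Robo4 (0.0973 and 0.0809). Ly6c1 has a near-identical neighbour, Ly6c2, and its probe set may read both.

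**Figure D2:**
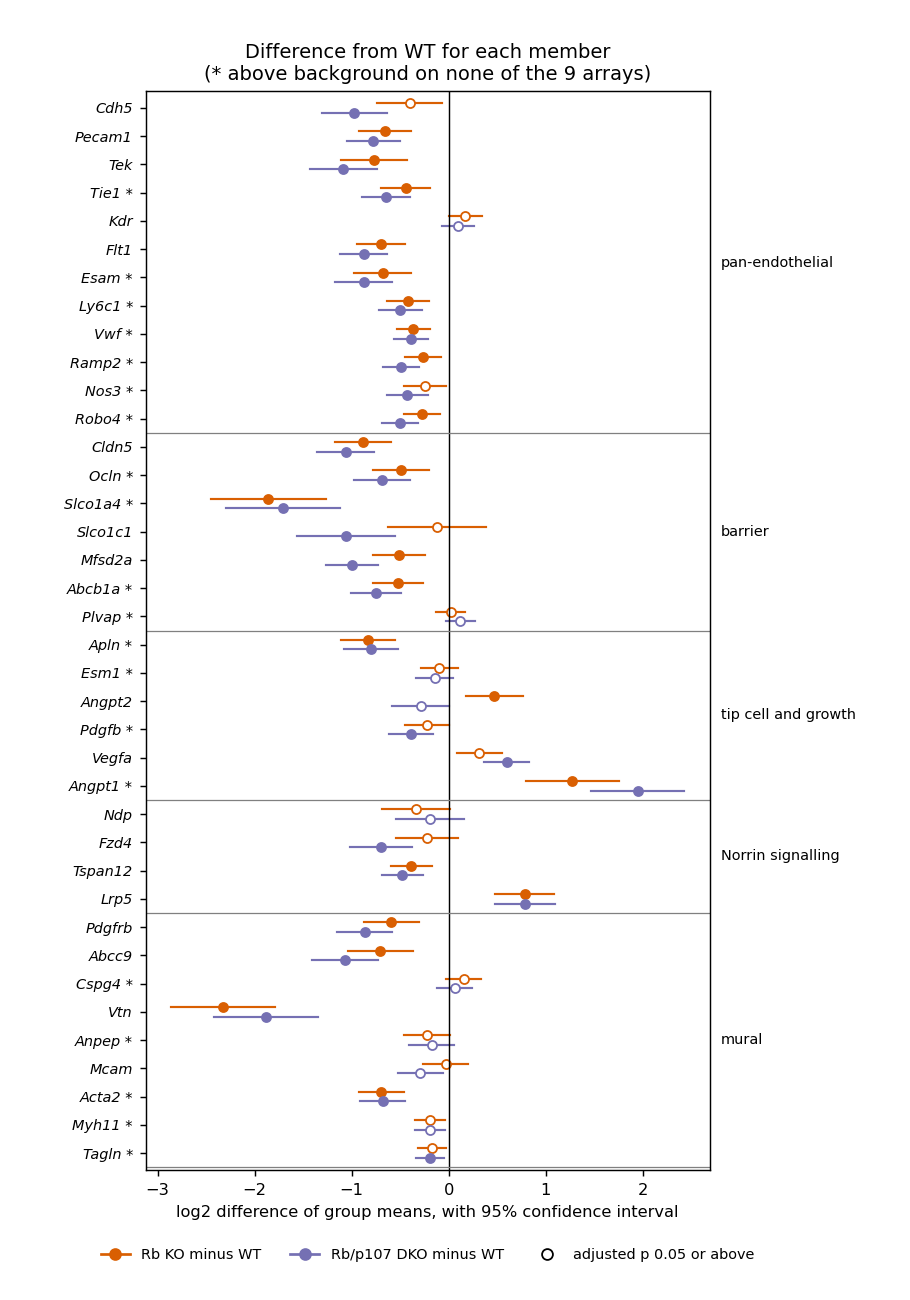
Log2 difference of group means for each of the 38 genes, Rb KO minus WT (orange) and DKO minus WT (purple), with 95% confidence intervals from limma; open circles have an adjusted p of 0.05 or above, and an asterisk marks genes above background on no array. Most points lie left of 0, with Angpt1 and Lrp5 to the right in both mutants and Kdr and Plvap close to 0.

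Without the filter on dim genes, barrier genes gave the lowest median of the 5 subsets, with 5 of 7 lower in Rb KO and 6 of 7 in DKO, and none higher. The median log2 difference was -0.51 in Rb KO and -1 in DKO. With the covariate the DKO median was -0.77. The filter on dim genes, which left 2 of the 7, gave -0.70 in Rb KO. By array the median of all 7 barrier genes was -0.64, -0.47 and -0.45 in Rb KO retinas and -1.17, -0.58 and -0.99 in DKO retinas, against -0.06, 0.22 and -0.07 in WT. Every mutant array thus lay below every WT array, and DKO replicate 2 lay nearer to Rb KO than the other DKO arrays did.

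Cldn5, the claudin that seals endothelial tight junctions in brain and retina, read 8.24, 8.21 and 8.20 in Rb KO retinas and 7.93, 8.11 and 8.08 in DKO retinas, against 9.12, 9.41 and 8.77 in WT. All WT arrays were above background and no mutant array was. It was at least 1.64-fold lower in Rb KO (difference of the readings -0.88, SE 0.13, limma adjusted p = 7.67e-04) and at least 1.65-fold lower in DKO (-1.06, adjusted p = 1.80e-04). Both calls held in every fit with 1 array left out and with the covariate.

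Mfsd2a carries lysophospholipids with docosahexaenoic acid and restrains vesicle transport across barrier endothelium. Its readings were 8.53, 8.55 and 8.63 in Rb KO retinas and 7.86, 8.29 and 8.08 in DKO retinas, against 9.03, 9.28 and 8.92 in WT. The 3 groups did not overlap, and only the DKO arrays were all at background. Mfsd2a averaged 8.57 ± 0.053 in Rb KO and 9.08 ± 0.19 in WT (SD, n = 3 each), which is 1.42-fold lower in Rb KO (limma adjusted p = 0.0105, lost with the covariate at 0.0928), and it was at least 1.62-fold lower in DKO than in WT (adjusted p = 1.43e-04). Between the mutants the readings of DKO were lower by 0.49, which just missed the threshold (adjusted p = 0.0651) and passed without WT replicate 2 or DKO replicate 2 (0.0329 and 0.0336), with the filter on dim genes, with trend and robust moderation or with only those groups in the fit (0.0252 to 0.0496). As background, Mfsd2a is also made by the retinal pigment epithelium, whose markers are given below.

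Slco1c1, a carrier of thyroid hormone, fell in DKO and did not pass in Rb KO. It read 7.38, 7.95 and 8.14 in Rb KO retinas and 6.56, 7.36 and 6.75 in DKO retinas, against 7.70, 8.17 and 7.96 in WT, where only replicate 2 was above background. Rb KO overlapped WT (95% interval of the log2 difference -0.63 to 0.38, adjusted p = 0.763), while DKO lay below WT on every array (-1.06, adjusted p = 0.00546, lost with the covariate at 0.0706). The difference of -0.93 between DKO and Rb KO missed the threshold (adjusted p = 0.0637), and passed without Rb KO replicate 1 or DKO replicate 2 (0.0208 and 0.0499).

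The remaining 4 barrier genes were above background on no array. The organic anion carrier Slco1a4 read 4.99, 5.25 and 5.35 in Rb KO retinas and 5.07, 6.06 and 4.91 in DKO retinas, against 6.71, 7.39 and 7.06 in WT, and its readings fell in both mutants (adjusted p = 5.91e-04 and 7.62e-04). The readings of Ocln, the tight junction protein occludin, and of Abcb1a, the efflux pump P-glycoprotein, also fell in both, with adjusted p = 0.0186 and 0.00255 for Ocln and 0.00798 and 7.29e-04 for Abcb1a. The Rb KO call of Ocln was lost without Rb KO replicate 1 or 2 (0.0533 to 0.0777) and with array centring (0.0571). With the covariate Ocln was lost in both mutants (0.142 in Rb KO, 0.0526 in DKO) and Abcb1a in Rb KO (0.0687). Plvap forms the diaphragms of leaky vessels and disappears from endothelium as the barrier matures. It read 7.35, 7.35 and 7.25 in Rb KO retinas and 7.42, 7.42 and 7.41 in DKO retinas, against 7.27, 7.37 and 7.25 in WT, and passed in neither mutant (adjusted p = 0.886 and 0.223). At this background level a rise in Plvap RNA of small size was not detectable.

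**Figure D3:**
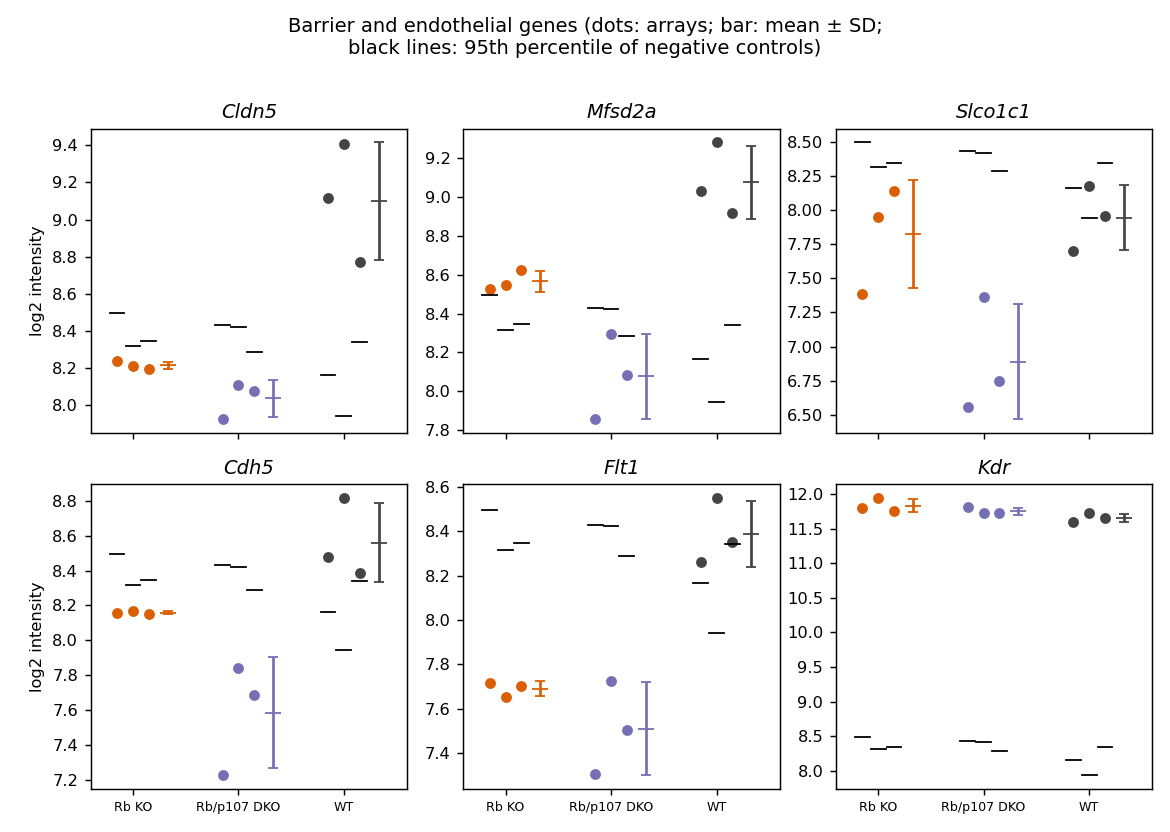
Log2 intensity in each array (dots) with mean and SD (bars) for 3 barrier genes, Cldn5, Mfsd2a and Slco1c1 (top), and 3 endothelial genes, Cdh5, Flt1 and Kdr (bottom), in Rb KO, DKO and WT; short black lines mark the 95th percentile of negative controls of each array, and each panel has its own scale. Cldn5 lies above the lines in WT and below them in both mutants, whereas Kdr lies between 11.60 and 11.94 on all 9 arrays.

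The genes of tip cells and growth did not move one way. Of 6 genes, 2 rose and 1 fell in Rb KO, and 2 rose and 2 fell in DKO, with median log2 differences of 0.11 and -0.22. The filter on dim genes, which left 2 of the 6, gave medians of 0.39 and 0.15. Vegfa, the growth factor that draws vessels towards tissue short of oxygen, was above background on every array. It read 11.07, 10.75 and 10.69 in Rb KO retinas and 11.25, 11.01 and 11.09 in DKO retinas, against 10.51, 10.51 and 10.54 in WT. Every mutant array lay above every WT array. Vegfa averaged 11.12 ± 0.12 in DKO and 10.52 ± 0.021 in WT (SD, n = 3 each), a rise of 1.51-fold (limma adjusted p = 0.00155). In Rb KO it was 1.24-fold higher and just missed the threshold (adjusted p = 0.0502); it passed without Rb KO replicate 3 (0.0331), with renewed quantile normalization, array centring, the filter on dim genes or trend and robust moderation (0.0231 to 0.0496).

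The angiopoietins showed different patterns. Angpt2, which sprouting endothelium makes and which loosens vessels for growth, read 8.57, 8.84 and 8.44 in Rb KO retinas and 8.00, 7.68 and 7.89 in DKO retinas, against 8.04, 8.39 and 8.01 in WT. It was above background on all 3 arrays of Rb KO, none of DKO and 1 of WT. The readings of Angpt2 rose 1.38-fold in Rb KO against WT, where 2 arrays lay at background (limma adjusted p = 0.0264), a call lost when WT replicate 1 or 3, or replicate 1 or 2 of Rb KO, was left out (0.0613 to 0.107) and with array centring (0.0514). It did not pass in DKO against WT (-0.29, adjusted p = 0.133). Angpt1, the ligand that activates Tek and steadies vessels, read 7.44, 8.05 and 6.95 in Rb KO retinas and 8.34, 7.97 and 8.16 in DKO retinas, against 6.12, 6.32 and 6.19 in WT. Its readings rose in both mutants with no overlap (adjusted p = 0.00168 and 8.40e-05), and both calls held with each array left out, yet no array was above background, so the size of the rise was not measured.

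The other 3 growth genes were also above background on no array. Apln, a peptide made by tip cells, read 6.71, 6.60 and 6.78 in Rb KO retinas and 6.68, 6.71 and 6.80 in DKO retinas, against 7.41, 7.86 and 7.32 in WT, and fell in both (adjusted p = 7.89e-04 and 7.66e-04). Pdgfb, with which endothelium recruits pericytes, fell in DKO (adjusted p = 0.0161, lost without WT replicate 1 or DKO replicate 1 at 0.0635 to 0.0716, and with the covariate at 0.162) and did not pass in Rb KO (0.153). Esm1, a proteoglycan secreted by tip cells, read 5.19 to 5.52 over the 9 arrays and did not pass (0.483 in Rb KO, 0.245 in DKO).

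Norrin signalling was the one subset with every gene above background somewhere, and its members differed in direction. Of 4 genes, 1 fell and 1 rose in Rb KO, and 2 fell and 1 rose in DKO, with medians of -0.28 and -0.34. Without WT replicate 2 the Rb KO median was -0.11, and with the covariate the medians were -0.02 and -0.07. With the filter on dim genes, which left 2 of the 4, both medians turned positive (0.20 and 0.15). Ndp, which encodes Norrin itself, read 7.66, 8.09 and 8.00 in Rb KO retinas and 7.89, 8.06 and 8.24 in DKO retinas, against 8.20, 8.58 and 7.99 in WT. Both mutants overlapped WT, and neither passed (adjusted p = 0.150 and 0.405, 95% intervals of the log2 difference -0.69 to 0.01 and -0.54 to 0.16). With the covariate the DKO difference of Ndp turned to 0.19, still not called.

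Fzd4 is the Norrin receptor of endothelial cells. It read 7.65, 7.89 and 7.91 in Rb KO retinas and 7.26, 7.43 and 7.34 in DKO retinas, against 7.77, 8.41 and 7.94 in WT, where only replicate 2 was above background. Rb KO overlapped WT (-0.22, adjusted p = 0.310) and DKO did not (-0.70, adjusted p = 0.00429, lost with the covariate at 0.0866). DKO against Rb KO missed the threshold (-0.47, adjusted p = 0.14), although it passed without WT replicate 2 (0.0230) or with only those groups in the fit (0.0295).

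Tspan12, the tetraspanin that boosts Norrin signalling through Fzd4, was above background on every array. It read 8.97, 9.11 and 9.02 in Rb KO retinas and 8.80, 8.99 and 9.03 in DKO retinas, against 9.55, 9.46 and 9.25 in WT. No mutant array reached the lowest WT array. It fell 1.31-fold in Rb KO (limma adjusted p = 0.0130) and 1.39-fold in DKO (adjusted p = 0.00325). The Rb KO call was lost without WT replicate 1 (0.0526), and both were lost with the covariate (0.106 in Rb KO, 0.0606 in DKO).

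Lrp5, the co-receptor that passes the signal to beta-catenin, went the other way. It read 8.91, 8.75 and 8.32 in Rb KO retinas and 8.82, 8.57 and 8.61 in DKO retinas, against 7.87, 7.99 and 7.78 in WT. It was above background on 2 arrays of Rb KO, all 3 of DKO and 1 of WT, and no mutant array overlapped WT. The readings of Lrp5 rose 1.72-fold in each mutant, against a WT level measured on 1 array only (limma adjusted p = 0.00216 in Rb KO and 0.00159 in DKO), and both calls held in every alternative tried. As background, Lrp5 also serves Wnt ligands and is not restricted to endothelium.

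**Figure D4:**
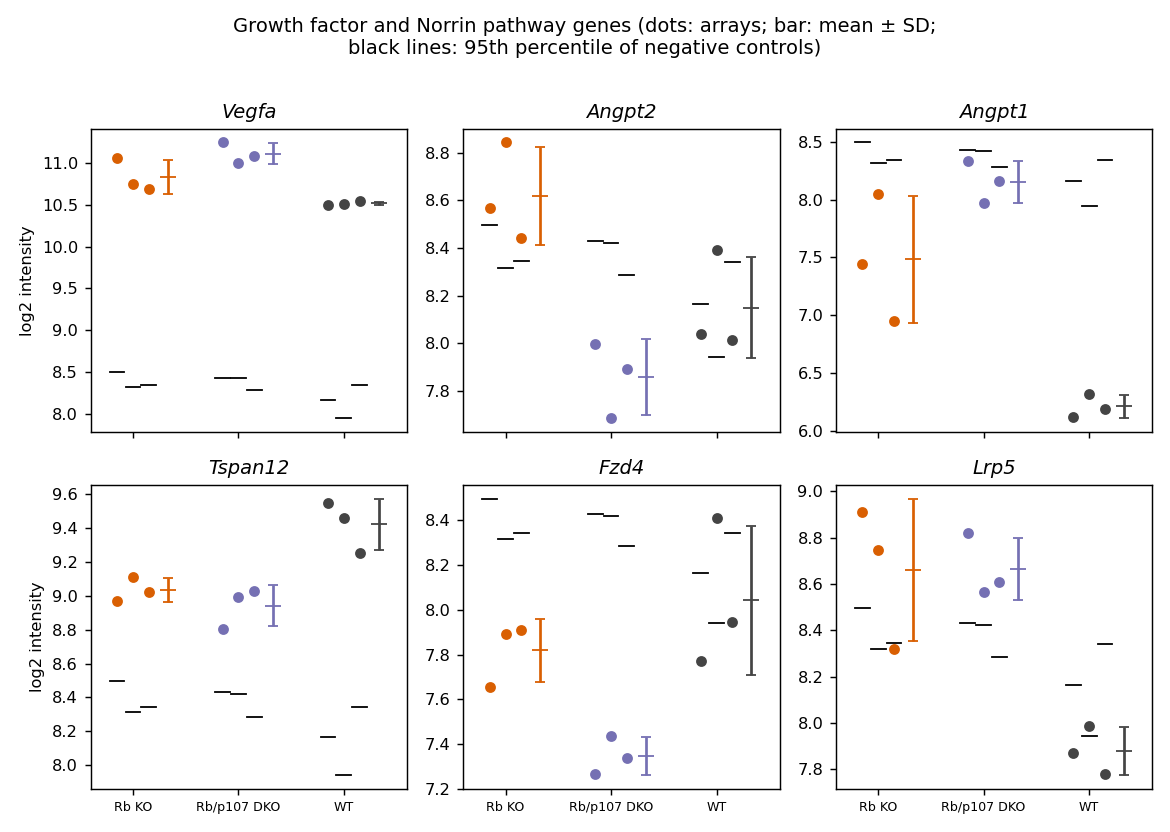
Log2 intensity in each array (dots) with mean and SD (bars) for the growth factor genes Vegfa, Angpt2 and Angpt1 (top) and the Norrin pathway genes Tspan12, Fzd4 and Lrp5 (bottom) in Rb KO, DKO and WT; short black lines mark the 95th percentile of negative controls of each array, and each panel has its own scale. Lrp5 lies higher in both mutants than in WT while Tspan12 lies lower, Angpt2 is highest in Rb KO, and Angpt1 stays below the lines on all 9 arrays.

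Mural genes were lower or did not pass. Of 9 genes, 4 fell in Rb KO and 5 in DKO and none rose, with median log2 differences of -0.22 and -0.29 (-1.18 and -1.09 with the filter on dim genes, which left 2 of the 9). Pdgfrb, the receptor through which pericytes answer Pdgfb, read 7.89, 7.89 and 7.92 in Rb KO retinas and 7.51, 7.84 and 7.52 in DKO retinas, against 8.40, 8.78 and 8.29 in WT. No mutant array was above background, and 2 of 3 WT arrays were. Pdgfrb was at least 1.08-fold lower in Rb KO (-0.59, limma adjusted p = 0.00675, lost with the covariate at 0.0680) and at least 1.08-fold lower in DKO (-0.87, adjusted p = 5.45e-04). The WT mean behind these bounds included WT replicate 3, which lay at background, so they are approximate.

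Abcc9, a subunit of the pericyte potassium channel, read 7.26, 7.35 and 7.44 in Rb KO retinas and 6.68, 7.25 and 7.01 in DKO retinas, against 7.94, 8.35 and 7.87 in WT, where only replicate 2 was above background. It fell in Rb KO (adjusted p = 0.00654, lost with the covariate at 0.0689) and in DKO (adjusted p = 4.11e-04), with no bound above 1-fold. Acta2, the actin of smooth muscle, was above background on no array, and its readings fell in both (adjusted p = 8.25e-04 and 7.08e-04).

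Of the 38 genes, Vtn had the most negative difference of the readings in both mutants (-2.32 and -1.88). That rank does not extend to RNA, since a fold change was measured for only 7 genes in Rb KO and 6 in DKO. Vtn encodes vitronectin, an adhesive matrix and blood protein used as a pericyte marker in brain. It read 7.77, 7.62 and 8.18 in Rb KO retinas and 7.66, 8.76 and 8.46 in DKO retinas, against 10.19, 10.35 and 9.99 in WT. All WT arrays lay above every mutant array, and of the mutants only DKO replicates 2 and 3 were above background. Vtn was at least 3.46-fold lower in Rb KO (limma adjusted p = 7.65e-05) and 3.69-fold lower in DKO (adjusted p = 2.21e-04). As background, rod photoreceptors of the mouse also transcribe Vtn. The rod transducin gene Gnat1 read 11.04, 10.88 and 12.04 in Rb KO retinas and 11.56, 13.15 and 12.79 in DKO retinas, against 13.58, 13.66 and 13.65 in WT, with the same order of the arrays as Vtn within each mutant group. That order is not particular to rod genes: the caveolin gene Cav1, given below, had it too, as did Pdgfrb by narrow margins. All 6 rod markers measured of 9 listed fell in both mutants, with summed intensities of 6949 to 13120 in Rb KO and 7401 to 16640 in DKO, against 28010 to 29720 in WT. Their part in the Vtn result was not tested.

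Of the other 5 mural genes 1 was called, in DKO. Mcam, the adhesion molecule CD146, read 8.71, 8.76 and 8.5 in Rb KO retinas and 8.46, 8.36 and 8.37 in DKO retinas, against 8.71, 8.87 and 8.49 in WT. It overlapped WT in Rb KO (adjusted p = 0.881) and lay just below it in DKO (1.22-fold lower, adjusted p = 0.0603, which passed without WT replicate 3 at 0.0157, with renewed quantile normalization at 0.0409 and with the filter on dim genes at 0.0302). Cspg4, the pericyte proteoglycan NG2, Anpep, the aminopeptidase CD13, and Myh11, the myosin of smooth muscle, were above background nowhere and did not pass in either mutant (adjusted p 0.0696 to 0.202 in Rb KO, 0.0603 to 0.632 in DKO), except that Myh11 passed in DKO without WT replicate 2 (0.0444) and with renewed quantile normalization (0.0333). Tagln, a smooth muscle actin-binding protein, was also at background, fell in DKO (adjusted p = 0.0423) and did not pass in Rb KO (0.0754). That DKO call was lost without any one of 7 arrays, all but WT replicate 2 and Rb KO replicate 1 (0.0558 to 0.147), and with the covariate, array centring or only those groups in the fit (0.0584 to 0.103).

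**Figure D5:**
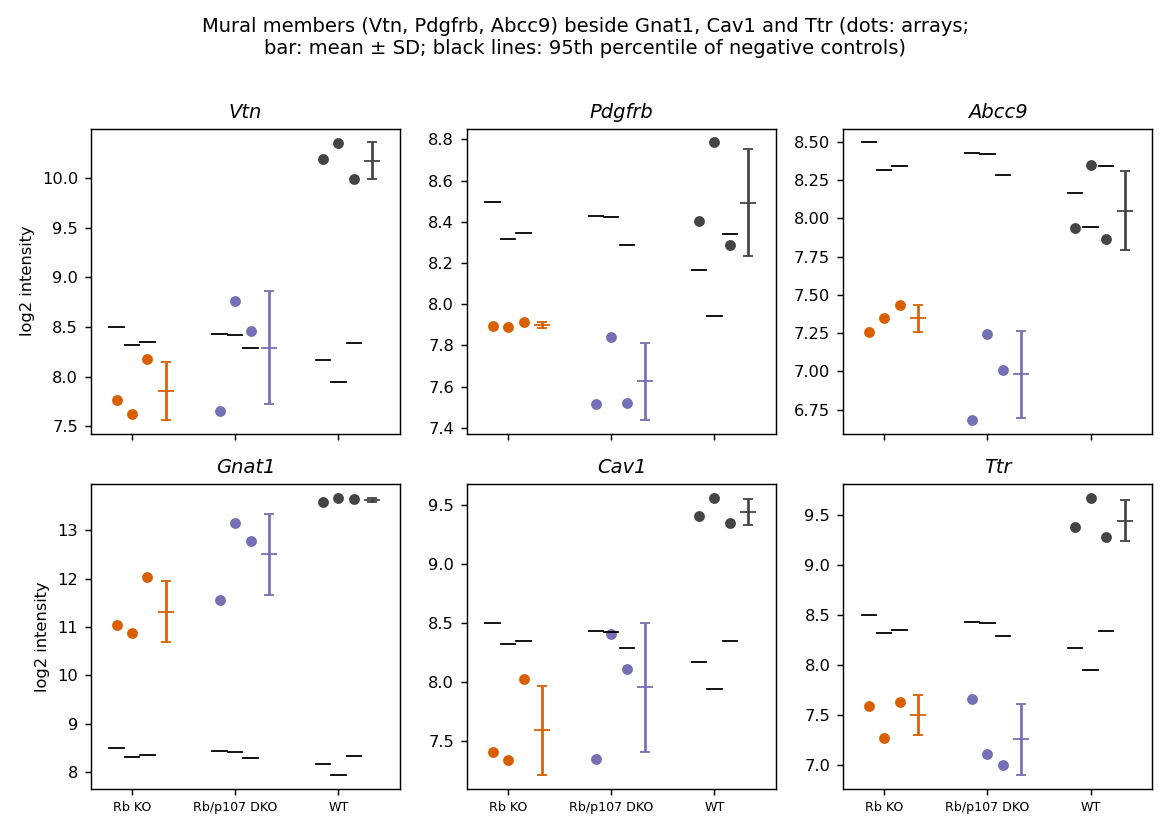
Log2 intensity in each array (dots) with mean and SD (bars) for the mural genes Vtn, Pdgfrb and Abcc9 (top) and, for comparison, the rod gene Gnat1, the caveolin gene Cav1 and the pigment epithelium marker Ttr (bottom) in Rb KO, DKO and WT; short black lines mark the 95th percentile of negative controls of each array, and each panel has its own scale. All 6 genes are highest in WT, and Vtn, Gnat1, Cav1 and, by narrow margins, Pdgfrb share the order of their arrays within each mutant group.

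Between DKO and Rb KO, 1 of the 38 genes was called, close to the share over all genes, 2.54% (1.34% higher, 1.21% lower). The median log2 difference of the 38 was -0.14, and 28 of them had a negative difference. Angpt2 was lower in DKO by at least 1.18-fold (difference of the readings -0.76, limma adjusted p = 0.0145). Its 3 DKO arrays, 8.00, 7.68 and 7.89, lay below the 3 Rb KO arrays, 8.57, 8.84 and 8.44. The call was lost without Rb KO replicate 1 or DKO replicate 3 (0.0539 to 0.0549). Without DKO replicate 2, the array that stood apart, 4 genes were lower in DKO, Cdh5, Slco1c1 and Mfsd2a besides Angpt2. Without WT replicate 2 the count was also 4, with Cdh5, Mfsd2a and Fzd4. Without Rb KO replicate 2 the count was 2, with Angpt1 higher in DKO (limma adjusted p = 0.0144). Of all 24257 genes, 497, 859 and 500 were called without DKO, WT and Rb KO replicate 2, beside 617 in the main fit.

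Other genes of the same pathways were read from further lists. Beside the counts of each list, 24.4% of all genes were called in Rb KO (14.3% lower, 10.2% higher). In DKO 29.3% of all genes were called (17.1% lower, 12.2% higher). Of 17 measured among 30 other endothelial genes, 6 fell and 2 rose in Rb KO and 10 fell and 2 rose in DKO. Lyve1, a receptor of lymphatic vessels and macrophages, was at least 1.10-fold lower in Rb KO (limma adjusted p = 0.00274) and at least 1.11-fold lower in DKO (0.0221, lost without replicate 2 or 3 of WT or DKO replicate 1 or 3, at 0.0567 to 0.0796). Ptprb, the phosphatase that restrains Tek, fell in both (0.0382 and 0.00131), the Rb KO call being lost without WT replicate 2 or any Rb KO array (0.0565 to 0.120). Sox11, on that list, is better known from neural progenitors and rose 5.28-fold in Rb KO and 8.81-fold in DKO (adjusted p = 6.94e-06 and 6.34e-07). Nr2f2, the venous transcription factor, had higher readings in both (limma adjusted p = 2.01e-04 in Rb KO and 4.94e-05 in DKO). Only 1 of the 3 DKO arrays was above background for Nr2f2, so no fold change is given.

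Among 17 measured of 23 other transport and junction genes, 8 fell and 1 rose in each mutant. Cav1, the coat protein of caveolae, read 7.40, 7.34 and 8.02 in Rb KO retinas and 7.34, 8.41 and 8.11 in DKO retinas, against 9.40, 9.56 and 9.35 in WT, and was at least 2.07-fold lower in Rb KO and at least 2.08-fold lower in DKO (limma adjusted p = 3.70e-04 and 0.00111). As background, caveolin is made by Muller glia as well as by endothelium. Spock2, a matrix proteoglycan, fell 1.67-fold in Rb KO and 1.81-fold in DKO (6.61e-04 and 2.02e-04). Slc7a1, a carrier of basic amino acids, rose 1.40-fold in Rb KO and 1.31-fold in DKO (0.00391 and 0.0104, the DKO call lost without DKO replicate 1 at 0.0518).

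Of 9 measured among 17 other Norrin and beta-catenin genes, 1 rose in Rb KO, and 2 rose and 1 fell in DKO, where 24.4% and 29.3% of all genes were called. Lgr5, a receptor for R-spondins, rose 2.19-fold in Rb KO and 2.59-fold in DKO (limma adjusted p = 6.18e-04 and 1.38e-04). Lrp6, the close relative of Lrp5, rose 1.17-fold in DKO (limma adjusted p = 0.0401, lost without any one of 6 arrays at 0.0555 to 0.143). The readings of Fzd6, another Frizzled receptor, fell 1.3-fold in DKO (0.0126, lost without DKO replicate 1 or 3 at 0.0502 to 0.0519). Of the DKO arrays only 1 was above background for Fzd6.

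Of 13 measured among 22 other sprouting and growth factor genes, 4 fell and 2 rose in Rb KO and 5 fell and 2 rose in DKO. Adm, the vessel-dilating and hypoxia-induced peptide adrenomedullin, read 8.28, 8.22 and 7.79 in Rb KO retinas and 9.51, 8.42 and 9.34 in DKO retinas, against 7.28, 7.59 and 6.86 in WT. It was at least 1.92-fold higher in DKO, with 2 of 3 arrays above background (limma adjusted p = 4.98e-04), and its background readings in Rb KO were called higher (0.0418), a call lost when WT replicate 1 or 3, or replicate 1 or 2 of Rb KO, was left out (0.0889 to 0.141) and with trend and robust moderation (0.0708). Vegfb rose 1.31-fold in Rb KO (0.0186, lost when WT replicate 1 or 3, or replicate 1 of Rb KO, was left out, at 0.0566 to 0.0729) and 1.46-fold in DKO (0.00260). Epas1, the hypoxia-inducible factor common in endothelium, fell 1.32-fold in Rb KO (0.0456, lost without any one of 6 arrays at 0.0508 to 0.162 and with only those groups in the fit at 0.0614) and at least 1.52-fold in DKO (4.44e-04). Sema3e, a neuronal guidance cue for vessels, was at least 1.3-fold lower in Rb KO and at least 1.31-fold lower in DKO (0.00131 and 5.51e-04).

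Of 14 measured among 23 other mural genes, 2 fell and 3 rose in Rb KO, and 3 fell and 3 rose in DKO. Over all genes 24.4% and 29.3% were called. Ndufa4l2, a mitochondrial protein induced by hypoxia and enriched in pericytes, rose 4.11-fold in Rb KO and 4.03-fold in DKO (limma adjusted p = 9.75e-05 and 7.73e-05), opposite to Pdgfrb and Abcc9. Zic1 rose 1.69-fold in DKO (0.00753) and did not pass in Rb KO (0.133), where it passed without WT replicate 2 (0.0333). Pdlim3 fell 1.62-fold in Rb KO (0.0174, lost without Rb KO replicate 1 or 3 at 0.0545 to 0.0555). Among 11 measured of 14 basement membrane genes, 5 fell and 2 rose in Rb KO and 6 fell and 2 rose in DKO. The type IV collagen chains Col4a1 and Col4a2 fell in both mutants, Col4a2 by at least 1.14-fold in each (0.00263 and 3.11e-04) and Col4a1 with no bound above 1-fold (0.0128 and 0.00138, the Rb KO call lost without Rb KO replicate 2 at 0.0525). The readings of the laminin chain Lamb2 rose 1.45-fold in Rb KO and 1.51-fold in DKO (limma adjusted p = 0.00625 and 0.00276). Of the WT arrays only 1 was above background for Lamb2. Of the genes named from these further lists, the Rb KO calls of Ptprb, Epas1, Pdlim3 and Col4a1 and the DKO calls of Lyve1, Lrp6 and Fzd6 were lost with the covariate (0.102 to 0.197), and array centring ended the Rb KO calls of Ptprb, Epas1, Col4a1 and Vegfb and the DKO call of Lrp6 (0.0502 to 0.108).

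Markers of other cells moved beside these genes. Of 8 pigment epithelium markers measured of 9, 7 fell in both mutants, with summed intensities of 1081 to 1254 in Rb KO and 891 to 1111 in DKO, against 2576 to 3474 in WT; Best1, Tyr and Mlana were above background on no array. Muller glia markers summed to 5686 to 6428 in Rb KO and 6142 to 6847 in DKO, against 8513 to 10220 in WT, and 4 of 5 measured fell in both. Retinal astrocyte markers summed to 757 to 810 in Rb KO and 840 to 995 in DKO, against 979 to 1113 in WT, with 4 of 6 measured lower in Rb KO and 3 lower and 1 higher in DKO. Pax2, S100b, Aldh1l1 and Fgfr3 were above background on no array. Aqp4 stood on both the Muller glia list and the astrocyte list. Gfap fell in Rb KO (limma adjusted p = 0.0436), did not pass in DKO (0.225) and was higher in DKO than in Rb KO (0.0297). Microglia markers were higher, with 4 of 8 measured rising in Rb KO and 3 in DKO, and sums of 1684 to 2532 in Rb KO and 2114 to 2823 in DKO, against 1339 to 1447 in WT, though Aif1, Cx3cr1, Tmem119, Itgam and C1qa were above background on no array. Fibroblast and choroid markers summed to 1279 to 1595 in Rb KO and 1214 to 1267 in DKO, against 766 to 1014 in WT, and of 6 measured Mfap4 rose in both, while 2 fell in Rb KO and 1 in DKO. The list medians were -0.24 and -0.17, and Dcn, Lum, Col1a1, Col1a2 and Pdgfrl were above background on no array. The 2 erythrocyte markers measured of 7 were at background and passed in neither mutant. The part of these cells in the vessel gene results was not tested.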

How the data were processed

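RNA of whole P8 retinas, 3 arrays per genotype, had been amplified, biotin-labelled and hybridised to an Affymetrix whole-transcript array, per the labels' protocols. The deposited values are log2 intensities per probe set, which the authors made by RMA, per the submitters' processing notes; software version and annotation build are details not given in the sources used here. Of 59649 probe sets, 52917 were transcript clusters, 24646 with 1 gene symbol, 1795 with several (not used) and 26476 with none. Symbols came from the platform annotation, 679 updated through the RefSeq gene table of GRCm38.p6. The brightest probe set by mean over the 9 arrays stood for a gene, which left 24257 genes.

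Group means were compared in limma 3.58.1 under R 4.3.3, on all 9 arrays (6 residual and 4.69 prior degrees of freedom), with Benjamini-Hochberg adjustment over all genes and calls at adjusted p under 0.05. The fit was tested on simulated data. Figures were drawn with matplotlib 3.10.9. A gene with no array of a group above the 95th percentile of that array's negative controls was taken as at background there, and has either a bound or no fold change. The number of arrays limits the precision. The members and lists were chosen with earlier results of these data known; array values are given for members called against WT and above background in at least 1 group and for Norrin genes, and from each further list up to 2 genes of lowest p per direction that were called and above background in a group, with other values given for background genes, Kdr, Mcam and Plvap chosen after they were seen. Alternatives were renewed quantile normalization, array centring, mean of probe sets, a filter on dim genes, trend and robust moderation, fits on only the groups compared, the separation of control probe sets as a covariate, a replicate block and leaving out each array. Same-numbered arrays of different groups were not paired: of 9 pairs, 2 had correlated deviations over 0.1 (range -0.162 to 0.145).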

Additional observations from a re-analysis of the deposited data

How the results depend on the processing

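Calls among the 38 genes numbered 23 for Rb KO and 29 for DKO, each against WT, and 1 between the mutants. With the filter to genes above background on at least 3 arrays, which tested 11 of the 38, the counts were 9, 9 and 3. Of all 7843 genes left by the filter, 4020, 4330 and 649 were called in that fit. With the separation of control probe sets as a covariate, 14 of the 38 were called in Rb KO against WT, beside 4304 of all 24257 genes. The replicate block gave 23, 29 and 2 of the 38, and 5453, 6666 and 501 of all genes. With it the calls of Cdh5 (0.0497), Vegfa (0.0400) and Zic1 (0.0103) in Rb KO, Mcam in DKO (0.0382) and Slco1c1 between the mutants (0.0116) were gained, and those of Ramp2 (0.0694), Robo4 (0.0574) and Epas1 (0.0597) in Rb KO and of Tagln (0.0773) and Lrp6 (0.0639) in DKO were lost (adjusted p). In DKO against Rb KO, trend and robust moderation gave 2 and the fit to only those groups 3, beside 723 and 737 of all genes. Leaving out each of the 9 arrays in turn gave 18 to 23, 27 to 30 and 0 to 4; the 0 was without DKO replicate 3. Over all genes these leave-one-out fits called 4043 to 6779, 4910 to 7866 and 253 to 859. Causes of these changes were not tested. The filter also left fewer genes that could be called. Centring each array left 16 of the 38 lower and 3 higher in Rb KO, where 4460 of all 24257 genes were called. Over all alternatives, single vessel genes kept direction and side of the threshold in 1740 of 1857 instances, gained a call in 32, lost one in 60 and turned sign without being called in either fit in 25; for other named genes the numbers were 974 of 1059, 12, 59 and 12. Of the 25, 19 were between the mutants and the other 6 were of Mcam, Slco1c1 and Plvap in Rb KO and of Ndp in DKO. Rb1 alone turned sign with a call, with the mean of its probe sets, to 0.68 in Rb KO and 0.74 in DKO. Subset medians moved by more than the spread between arrays in 19 of 255 instances. Signal over background limits most of these genes, 20 of which have no measured level, and 3 arrays per group limit the rest.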
